A study of Oryza sativa Japonica Group with 8 samples.

Results

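The genes described here are 42 rice loci encoded in the nucleus whose products carry out photosynthesis in the plastid. They were chosen by their Rice Annotation Project (RAP) locus identifiers, and all 42 were found among the 38726 features of the count table. They were entered in 5 classes, with 14 loci for light-harvesting proteins, 14 for photosystem subunits, 5 for electron carriers, 3 for Rubisco small subunits and 6 for Calvin cycle enzymes. Neither the count table nor the reference gene table names any of these loci. The class of each locus is therefore the one under which it was listed by hand, and it could not be checked against an annotation here. All 42 loci passed the filter on low counts in both comparisons below.

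RNA was measured in pistils of wild-type rice (Oryza sativa ssp. japonica, cultivar Nipponbare) that had received no treatment and were sampled at the heading stage. The pistil, the flower's female organ, bears stigma and style on top of the ovary. There were 8 libraries in 3 groups: nuclei sorted from pistils (n = 2), upper pistil parts as whole-cell RNA (n = 3) and lower pistil parts, likewise whole-cell (n = 3). The plants had been grown with 10 h of light at 30 °C and 14 h of dark at 25 °C. The labels state neither where the pistil was divided nor how many plants a library holds. The p-values therefore refer to the variation among these libraries only, and part of it may be technical.

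Light-harvesting proteins bind chlorophyll and pass the absorbed energy to the reaction centres of photosystem I and photosystem II. Electron carriers move electrons between and beyond the photosystems, and the Calvin cycle uses the energy gained to fix carbon dioxide, beginning with the enzyme Rubisco. Rubisco and the photosystems are assembled from subunits made in the plastid and subunits encoded in the nucleus, and the nuclear genes are known for high expression in green tissue in the light. Several of these proteins come from families of similar genes. The counting of reads that match several places is not described in the labels, so reads may be split between near-identical copies, above all within the light-harvesting and Rubisco small subunit families.

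Total counts were 10857036 and 9268151 in the nuclei libraries, and ran from 24796307 to 35518142 in the 6 whole-cell libraries. Lower replicate 3 stood apart from its group, since its Spearman correlation across features averaged 0.954 to the upper libraries but 0.935 to its own group. Upper and lower libraries with the same replicate number deviated together and were taken as pairs. Nuclei were prepared with another library kit than the whole-cell RNA, so an effect of the kit and one of the compartment cannot be told apart. No table at hand pairs RAP loci with names, so the labelled tissue could not be checked against its marker genes.

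Transcripts of the 42 loci were present in every library. Counts per locus ran from 10 to 744 in nuclei, from 71 to 7871 in the upper part and from 43 to 19547 in the lower part. The smallest, 10 counts of Os03g0267300 (Calvin cycle class) in nuclei replicate 1, corresponds to 0.896 CPM (counts scaled to a common library size), with an exact 95% Poisson interval from 0.430 to 1.65 CPM that covers counting error alone. Summed over the 42 loci, the level was 867 and 1171 CPM in nuclei replicates 1 and 2. It was 1166, 2283 and 1086 CPM in upper replicates 1, 2 and 3, and 1748, 4474 and 1338 CPM in lower replicates 1, 2 and 3. The 42 loci together thus took between 0.0867% and 0.447% of a library's counts. The sum was highest in lower replicate 2, next in upper replicate 2 and lowest in nuclei replicate 1.

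**Figure D1:**
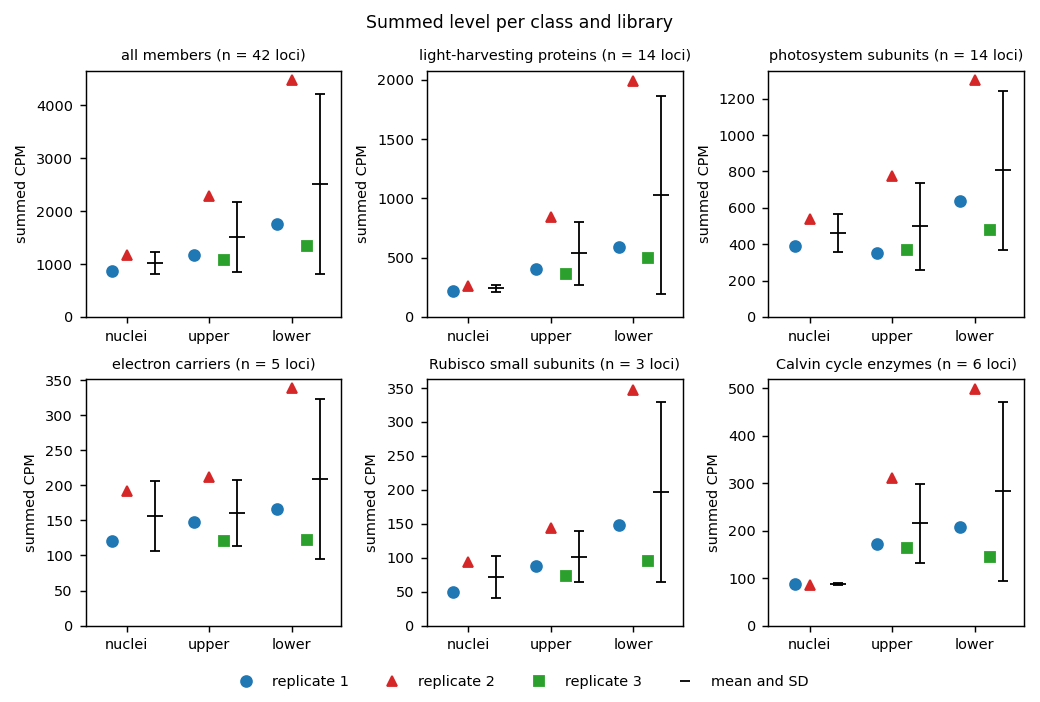
Summed CPM over total counts (y axis, linear, from 0) for all 42 loci and for each class, in nuclei, upper and lower libraries; points are libraries, colours and shapes mark the replicate number, and the bar beside each group is the mean with its SD. Replicate 2 is the highest library of both whole-cell groups in every panel, where the sum over all members is 2283 CPM (upper) and 4474 CPM (lower); replicate numbers of nuclei are not taken as pairs with those of the parts.

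In the replicate 2 libraries most of the photosynthesis loci stood above replicates 1 and 3, in both parts of the pistil. Replicate 2 was the highest of the upper libraries for 33 of the 42 loci (78.6%, against 39.6% of the 29848 genes tested) and the highest of the lower libraries for 40 (95.2%, against 39.9%). For 32 loci it was the highest in both parts (76.2%, against 28.9% of the genes tested). The median log2 difference between replicate 2 and the mean of replicates 1 and 3 was 0.77 over the members for upper libraries and 1.43 for lower libraries, while the medians over all genes tested were 0.03 and 0.03. These are descriptions of single libraries and carry no test. The labels do not say what the libraries of a pair share. In bulk RNA, fewer cells of a type and less RNA per cell cannot be told apart.

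**Figure D2:**
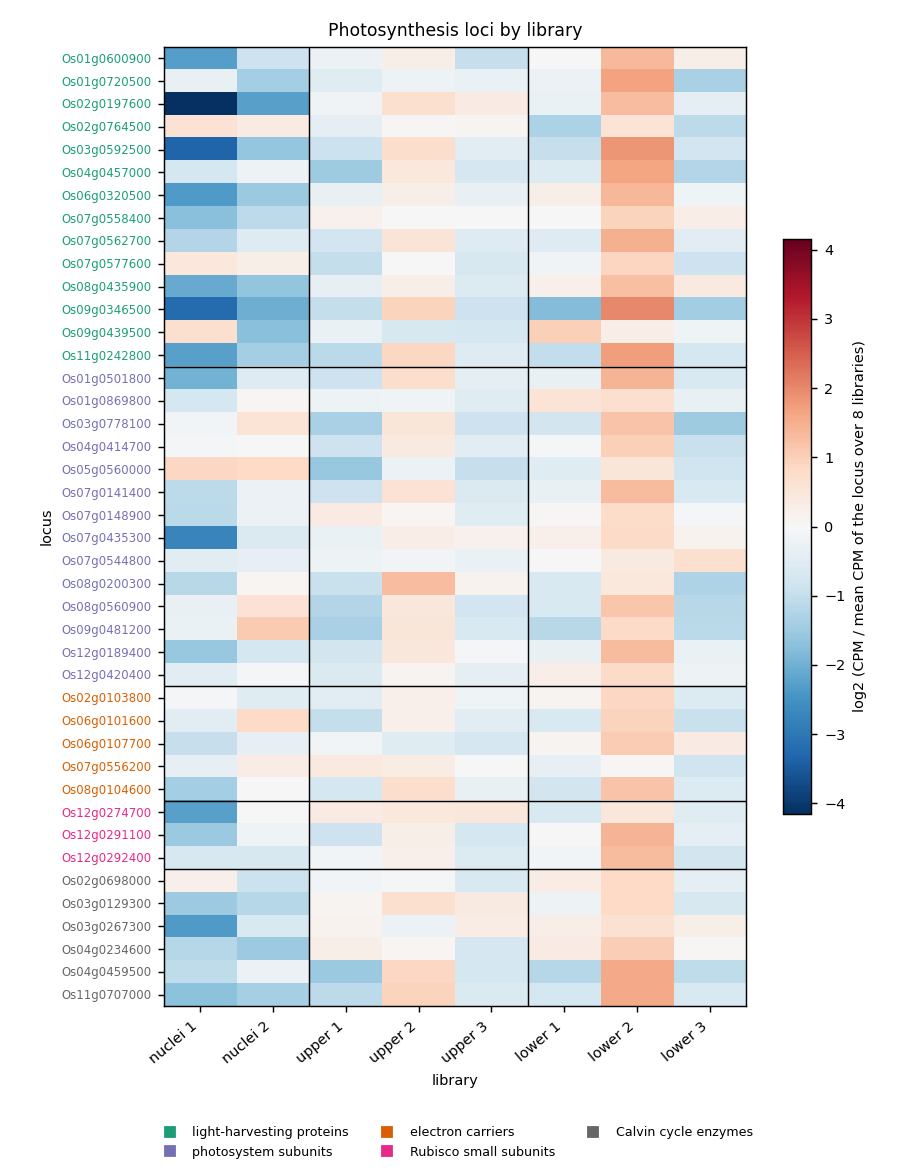
Level of each of the 42 loci (rows, grouped and coloured by class) in the 8 libraries (columns: nuclei, upper, lower), as log2 of its CPM over its mean CPM in all 8 libraries. Lower replicate 2 is red, above the mean of the locus, in nearly every row, and nuclei replicate 1 is blue in many rows, most deeply for Os02g0197600 with 1.97 CPM there.

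The size of this replicate difference varied among the light-harvesting loci. Values of a part are given from replicate 1 to replicate 3 here and below. Os09g0346500, the locus with the highest mean level of its class, stood at 61.4, 236 and 68.1 CPM in upper replicates 1, 2 and 3, against 34.8, 495 and 44.7 CPM in lower replicates 1, 2 and 3. Replicate 2 was thus 3.64-fold above the mean of the other replicates in the upper part and 12.4-fold above it in the lower part, the largest such ratio among the 42 loci. Os03g0592500 stood at 21.4, 66.1 and 29.8 CPM in the upper replicates, against 20.4, 143 and 23.2 CPM in the lower replicates, with ratios of 2.58 and 6.55. Os11g0242800 behaved in the same direction, with ratios of 3.16 in the upper and 6.13 in the lower part. At the other end, Os07g0558400 stood at 66.9, 59.1 and 60.7 CPM in the upper replicates, against 60.2, 114 and 72.0 CPM in the lower replicates, so its upper libraries differed little. Os09g0439500 was the light-harvesting locus without a high replicate 2 in either part, with ratios of 0.897 in the upper and 0.845 in the lower part.

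The light-harvesting class had a median ratio of 1.67 (upper) and 3.26 (lower). Photosystem subunits had a higher median in the upper part, 2.02, and a lower one in the lower part, 2.63. The medians were 1.47 (upper) and 2.08 (lower) for electron carriers, 1.44 and 3.02 for Rubisco small subunits, and 1.30 and 2.08 for Calvin cycle loci. Differences between these medians were not tested. Among photosystem subunits the ratios of single loci ran from 1.07 to 2.99 in the upper part and from 0.999 to 4.81 in the lower part. Among electron carriers they ran from 0.921 to 2.33 in the upper and from 1.53 to 3.66 in the lower part. Among Rubisco small subunits they ran from 1.02 to 2.05 in upper and from 2.07 to 3.30 in lower libraries. In the upper part both the highest and the lowest ratio of the 42 loci belonged to the Calvin cycle class. Os04g0459500 stood at 8.57, 45.6 and 15.0 CPM in the upper replicates, against 10.9, 74.1 and 11.99 CPM in the lower replicates, 3.87-fold and 6.47-fold above the mean of the other replicates. Os03g0267300 stood at 5.11, 3.89 and 5.69 CPM in the upper replicates, against 5.60, 7.22 and 5.45 CPM in the lower replicates, with ratios of 0.720 and 1.31.

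The loci mostly varied together across the whole-cell libraries. The Pearson correlation of each locus with the mean of the other 41, on the log2(CPM + 1) scale over the 6 whole-cell libraries, had a median of 0.923 and ran from 0.122 (Os09g0439500) to 0.989 (Os07g0141400), and it exceeded 0.9 for 23 loci. With the nuclei included (8 libraries) the median was 0.760, the range ran from -0.026 to 0.985, and 11 loci exceeded 0.9. The points share libraries and their depth, the level of replicate 2 weighs on all of them, and the values are given as a description. All other genes were not summarised on this measure. A locus outside the list, Os09g0473350, reached 0.989 with the mean of the members over 8 libraries, so high values are not particular to the members. Os05g0560000, a photosystem subunit by class, had a correlation of 0.916 over the whole-cell libraries and 0.078 over all 8.

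The first comparison set the upper part against the lower part of the pistil, to ask whether the photosynthesis loci differ along the organ. No member was called in either direction, while most fold changes pointed to a lower level in the upper part. Calls were made where the Benjamini-Hochberg adjusted p was below 0.05 and the log2 fold change reached 1 in size. By that rule edgeR's quasi-likelihood test called 0 of 42 loci higher in the upper part (0.811% of all genes tested) and 0 lower (0.00335%). By an unadjusted p under 0.05 edgeR had 0 members above 0 and 2 below, and DESeq2 also called 0 members higher (3.96% of the genes it tested) and 0 lower (1.21%) among the 41 to which it gave an adjusted p. By unadjusted p it too had 0 members above 0 and 2 below. The share of all genes with an unadjusted p under 0.05 was not counted, so nothing is read from such counts, here or below. The log2 fold change was below 0 for 37 of the 42 loci, with a median of -0.49 against -0.02 over all genes tested.

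The number of loci pointing down depended on the replicate 2 libraries. Without lower replicate 2, with its upper partner kept, 17 of the 42 loci were below 0 and 25 above, the median log2 fold change of the members was 0.28, and edgeR again called 0 members higher (0.161% of all genes tested) and 0 lower (0%). Unadjusted p-values under 0.05 went to 3 members above 0 and to 0 below. When replicate 2 was left out of both parts, a choice made after the data were seen, 27 loci were below 0 and the median of the members was -0.12. In the blocked fit without replicate 2 it was also 27 loci, with a median of -0.11. The summed level averaged 1512 ± 669 CPM (SD, n = 3) in upper libraries, against 2520 ± 1705 CPM (SD, n = 3) in lower libraries, a ratio of 0.600. The ratio was 0.980 without lower replicate 2. Without lower replicate 3, the library that stood apart, 37 loci were below 0, and edgeR called 0 members higher (3.01% of all genes tested) and 0 lower (0.138%). Unadjusted p-values under 0.05 went to 0 members above 0 and to 7 below.

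Within replicate pairs the loci did not point the same way. In pair 1, 31 of 42 loci were lower in the upper library (73.8%, against 47.9% of the genes tested), with a median log2 ratio of -0.25. In pair 2 it was 40 loci (95.2%, against 52.6%), with a median of -0.70. In pair 3 it was 15 (35.7%, against 50.7%), with a median of 0.18. Pair 3 holds lower replicate 3. In all 3 pairs 13 loci were lower in the upper part, 31.0%, where 29.5% of all genes tested were, and 1 was higher (2.38%, against 29.5%). The 13 loci came from all classes: 5 of the 14 light-harvesting loci, 4 of the 14 photosystem subunits, 1 of the 5 electron carriers, 1 of the 3 Rubisco small subunits and 2 of the 6 Calvin cycle loci.

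**Figure D3:**
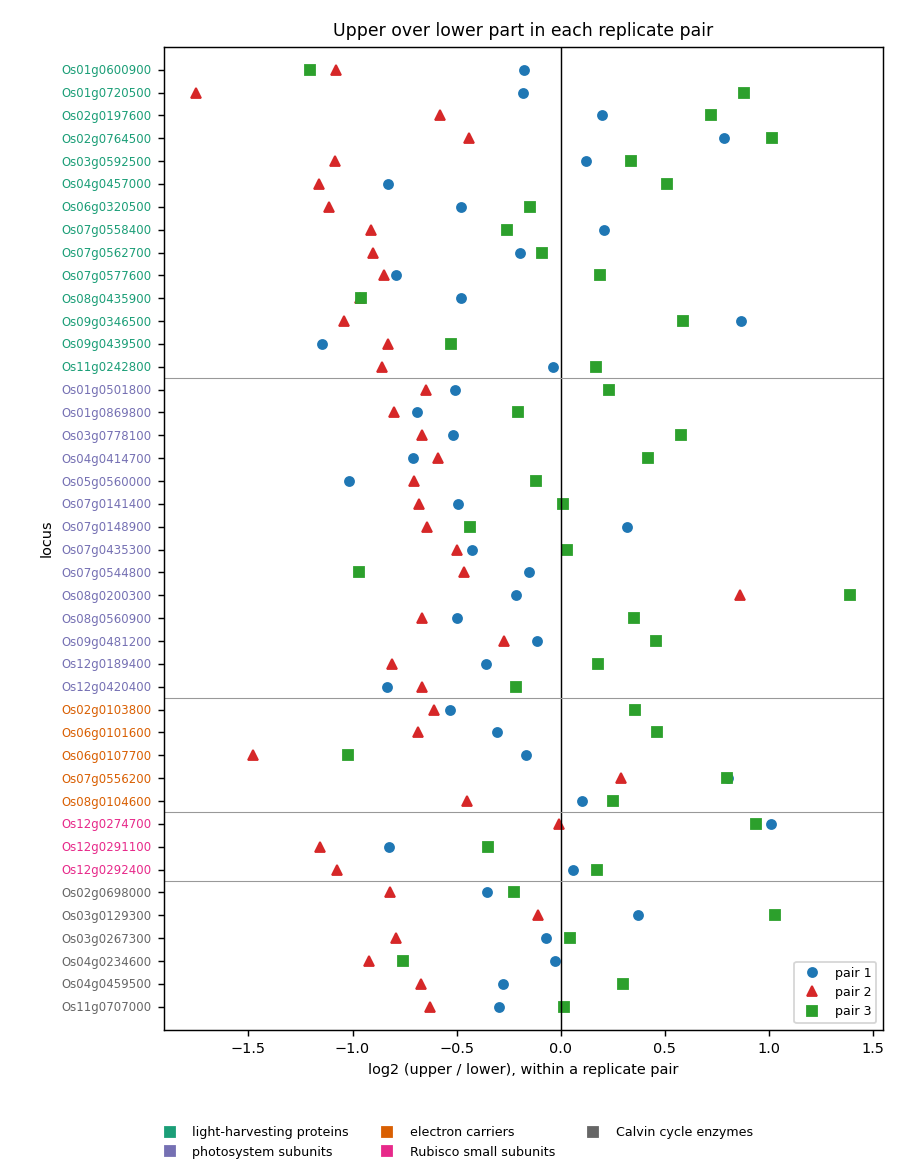
Log2 ratio of upper over lower CPM (x axis, pseudocount of 0.5 CPM) for each of the 42 loci (rows, grouped and coloured by class) in replicate pairs 1, 2 and 3. Triangles of pair 2 lie left of 0 for 40 loci, while squares of pair 3 lie left of 0 for 15.

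With the replicate number as a block, edgeR called 0 members higher (5.12% of all genes tested) and 0 lower (3.02%). Unadjusted p-values under 0.05 went to 1 member above 0 and to 9 below, with no share of all genes counted beside them in any blocked fit. The median log2 fold change of the members was -0.31 in that fit. When pair 1 was dropped from the blocked fit, 3 members were called, for which the genes tested gave 7.56% called higher and 4.18% called lower. Os08g0200300 was higher (log2 fold change 1.18, edgeR adjusted p = 0.0219). Os01g0600900 and Os06g0107700 were lower, with log2 fold changes of -1.10 and -1.24 (edgeR adjusted p = 0.0281 and 0.0202). When pair 2 was dropped from it, edgeR called 0 members higher (0.325% of all genes tested) and 0 lower (0%), and without pair 3 again 0 higher (7.62%) and 0 lower (2.14%). Unadjusted p-values under 0.05 went to 3 members above 0 and 1 below without pair 2, and to 0 above and 14 below without pair 3.

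In 3 loci every upper library lay below every lower library (7.14%, where 10.3% of all genes tested did), and in 0 the reverse held (10.3% of all genes tested). Os09g0439500, a light-harvesting locus, stood at 5.41, 4.19 and 3.93 CPM in the upper replicates, against 13.0, 7.98 and 5.83 CPM in the lower replicates. The log2 fold change came to -0.96 (95% interval from -1.91 to -0.01, SE 0.41, edgeR adjusted p = 0.356). Os06g0107700, in the electron carrier class, stood at 16.8, 12.9 and 11.3 CPM in the upper replicates, against 19.7, 37.5 and 23.2 CPM in the lower replicates. It gave a log2 fold change of -0.95 (95% interval from -1.75 to -0.15, SE 0.35, edgeR adjusted p = 0.298). Os07g0544800, a photosystem subunit by class, stood at 63.9, 67.8 and 60.4 CPM in the upper replicates, against 73.8, 95.4 and 117 CPM in the lower replicates. The fit gave -0.56 on the log2 scale (SE 0.29, edgeR adjusted p = 0.429), and the highest of its lower libraries was replicate 3, not replicate 2.

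Of the 5 loci with a log2 fold change above 0, none was called. Os07g0556200, the electron carrier locus with the highest mean of its class, was the single locus higher in the upper part in all 3 pairs. It stood at 75.4, 70.5 and 56.3 CPM in the upper replicates, against 44.7, 58.6 and 31.8 CPM in the lower replicates, so the groups overlapped (log2 fold change 0.61, SE 0.31, 95% interval from -0.11 to 1.32, edgeR adjusted p = 0.416). Os08g0200300, in the photosystem class, stood at 19.5, 89.1 and 40.9 CPM in the upper replicates, against 23.6, 49.8 and 15.2 CPM in the lower replicates. Upper replicate 1 lay below lower replicates 1 and 2, and its log2 fold change came to 0.78 with an SE of 0.62 (edgeR adjusted p = 0.567). Os12g0274700, a Rubisco small subunit locus, stood at 19.1, 20.3 and 20.8 CPM in the upper replicates, against 9.57, 20.8 and 10.5 CPM in the lower replicates. The other Rubisco small subunit loci pointed down. Os12g0291100 stood at 46.1, 99.1 and 50.8 CPM in the upper replicates, against 85.2, 225 and 64.1 CPM in the lower replicates, lower in the upper part in all 3 pairs, with overlapping groups (log2 fold change -0.91, SE 0.55, edgeR adjusted p = 0.482).

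The Calvin cycle locus with the highest mean of its class, Os03g0129300, stood at 109, 162 and 132 CPM in the upper replicates, against 87.0, 178 and 63.6 CPM in the lower replicates (log2 fold change 0.32, SE 0.44, 95% interval from -0.72 to 1.35, edgeR adjusted p = 0.751). Os04g0234600 of the same class stood at 19.1, 16.7 and 9.76 CPM in the upper replicates, against 20.3, 32.7 and 16.7 CPM in the lower replicates (log2 fold change -0.59, SE 0.38, edgeR adjusted p = 0.504). For the light-harvesting locus Os09g0346500, whose CPM values are given above, the interval of the log2 fold change ran from -3.10 to 1.84, wide enough to hold large changes in either direction (edgeR adjusted p = 0.792). Os07g0141400, the photosystem locus with the highest mean of its class, stood at 49.2, 137 and 58.5 CPM in the upper replicates, against 72.2, 223 and 57.6 CPM in the lower replicates (log2 fold change -0.51, SE 0.63, edgeR adjusted p = 0.716). For all 42 members the 95% interval reached past a 2-fold change in at least 1 direction.

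The second comparison was between sorted nuclei and the whole-cell parts, taken as the mean of upper and lower, to ask how the photosynthesis loci are represented in nuclear RNA. The calls were 6 loci lower in nuclei and 1 higher. The 6 were light-harvesting and Calvin cycle loci, and the 1 was a photosystem subunit locus. By edgeR's quasi-likelihood test 6 of 42 members were called lower (14.3%, against 8.76% of the 31858 genes tested) and 1 higher (2.38%, against 14.1%). The log2 fold change was below 0 for 32 of the 42 loci, and the median was -0.73 against -0.03 over all genes tested. The summed level averaged 1019 ± 215 CPM over the nuclei (SD, n = 2), against 2016 ± 1283 CPM over the whole-cell group (SD, n = 6), a ratio of 0.505. That ratio was 0.668 without lower replicate 2.

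**Figure D4:**
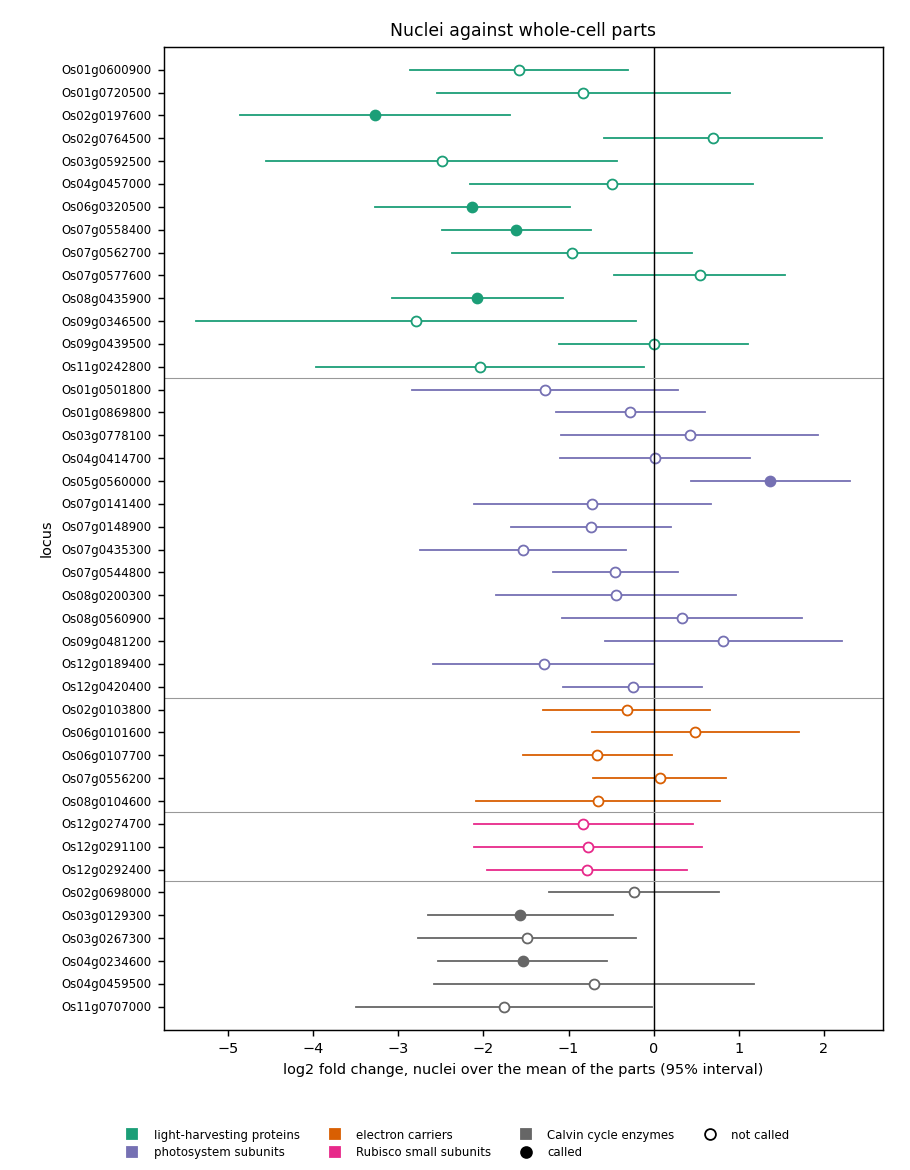
Log2 fold change of nuclei over the mean of the parts (x axis) for each of the 42 loci (rows, grouped and coloured by class). Lines are 95% intervals derived from the edgeR fit, and filled points were called. The 6 loci called lower lie between -3.28 and -1.54, and the 1 called higher, Os05g0560000, lies at 1.37.

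Among the 14 light-harvesting loci 4 were called lower and 0 higher, with a median log2 fold change of -1.60. Os02g0197600 had the largest change, with 1.97 and 7.30 CPM in the nuclei libraries and a lowest, median and highest value of 26.4, 38.1 and 85.4 CPM in the whole-cell libraries. Both nuclei libraries lay below every whole-cell library (log2 fold change -3.28, SE 0.71, edgeR adjusted p = 0.0113). Os06g0320500 had 8.15 and 14.2 CPM in nuclei and 33.5, 42.8 and 108 CPM as the lowest, median and highest value in whole cells (log2 fold change -2.13, SE 0.51, edgeR adjusted p = 0.0172). Os08g0435900 had 13.9 and 19.0 CPM in nuclei and 39.7, 69.3 and 140 CPM in whole cells on the same measures (log2 fold change -2.07, SE 0.45, edgeR adjusted p = 0.0114). Os07g0558400 had 17.8 and 28.0 CPM in nuclei and 59.1, 63.8 and 114 CPM in whole cells (log2 fold change -1.61, SE 0.39, edgeR adjusted p = 0.0180). In all 4 loci the groups did not overlap.

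These calls were lost, as were most calls among all genes tested, without nuclei replicate 1. Without it, edgeR called 0 members lower (1.26% of all genes tested) and 0 higher (6.07%). Unadjusted p-values under 0.05 went to 6 members below 0 and 1 above, and the log2 fold changes of Os02g0197600, Os06g0320500, Os08g0435900 and Os07g0558400 were -2.61, -1.79, -1.86 and -1.33. With 1 nuclei library left, the fit assumes that it varies like the other groups. Leaving out nuclei replicate 2 instead, which also leaves 1 nuclei library, gave -4.49, -2.59, -2.32 and -1.98 for the same 4 loci. The cause of the lost calls was not tested. Each of the 4 kept its call without any other single library. Over the 8 fits with a library left out, the edgeR adjusted p ran from 0.00646 to 0.101 for Os02g0197600 and from 0.0141 to 0.134 for Os07g0558400. Nuclei replicate 2 was above nuclei replicate 1 for 34 of the 42 members (81.0%, against 53.9% of genes with counts in both), with a median log2 difference of 0.75 against 0.13.

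Further light-harvesting loci were low in nuclei but varied more between the whole-cell libraries, and were not called. Os09g0346500 had 13.3 and 29.9 CPM in nuclei and 34.8, 64.8 and 495 CPM as the lowest, median and highest value in whole cells. The groups did not overlap (log2 fold change -2.79, SE 1.16, edgeR adjusted p = 0.106). Os03g0592500 had 4.03 and 13.2 CPM in nuclei and 20.4, 26.5 and 143 CPM in whole cells (log2 fold change -2.49, SE 0.93, edgeR adjusted p = 0.0762). Os11g0242800 had 7.97 and 14.4 CPM in nuclei and 17.7, 25.0 and 130 CPM in whole cells (log2 fold change -2.04, SE 0.87, edgeR adjusted p = 0.112). Os01g0600900 had 15.95 and 42.4 CPM in nuclei and 39.6, 84.2 and 196 CPM in whole cells, with overlapping groups (log2 fold change -1.58, SE 0.57, edgeR adjusted p = 0.0713).

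With the whole-cell replicate number as a block, 11 members were called lower (12.3% of all genes tested) and 1 higher (18.4%). The 11 held the 6 loci called without the block. The 5 added were Os09g0346500, Os03g0592500, Os11g0242800, Os01g0600900 and Os11g0707000 of the Calvin cycle class, with edgeR adjusted p-values of 0.0221, 0.0196, 0.0146, 0.0423 and 0.0116. They are named because the block changed their call. The block takes the variation between whole-cell replicates out of the spread, while nuclei carry no block term. Its p-values may therefore be too small, and the added calls are weaker evidence than the 6. For Os09g0346500 the SE was 0.57 with the block, against 1.16 without it. DESeq2 called 11 members lower (12.2% of the genes it tested) and 1 higher (15.1%) of the 41 to which it gave an adjusted p. It gave none for Os09g0346500. Its 11 included Os07g0435300 of the photosystem subunit class, which the block did not call.

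The light-harvesting class was not uniform. Its log2 fold changes ran from -3.28 to 0.70, with 11 of the 14 loci below 0. Os07g0577600 had 61.7 and 54.7 CPM in nuclei, against 22.9, 35.3 and 85.6 CPM as the lowest, median and highest value in whole cells. Os02g0764500 had 5.29 and 4.45 CPM in nuclei and 1.40, 3.16 and 5.22 CPM in whole cells. Neither locus was called, and in both the nuclei values lay within or near the upper end of the whole-cell range. Both nuclei libraries lay below every whole-cell library for 7 of the 14 light-harvesting loci, 2 of the 14 photosystem subunits, 0 of the 5 electron carriers, 0 of the 3 Rubisco small subunits and 4 of the 6 Calvin cycle loci. That is 13 of the 42 loci (31.0%, against 18.2% of all genes tested), while 1 locus had both nuclei libraries above every whole-cell library (2.38%, against 17.2%).

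In the Calvin cycle class all 6 loci had a log2 fold change below 0, with a median of -1.51, and 2 were called lower. Os03g0129300 had 35.4 and 44.7 CPM in nuclei and 63.6, 120 and 178 CPM as the lowest, median and highest value in whole cells, without overlap (log2 fold change -1.57, SE 0.49, edgeR adjusted p = 0.0437). It lost its call without any of the upper libraries or either nuclei library, with edgeR adjusted p-values of at most 0.220 and log2 fold changes between -1.75 and -1.40 over the 8 fits. Os04g0234600 had 7.08 and 5.57 CPM in nuclei and 9.76, 17.9 and 32.7 CPM in whole cells, also without overlap (log2 fold change -1.54, SE 0.45, edgeR adjusted p = 0.0341). Its call was lost without upper replicate 1 or 2 or either nuclei library (adjusted p up to 0.129), with log2 fold changes between -1.73 and -1.39. Against the upper part alone Os04g0234600 was not called (edgeR adjusted p = 0.0886). Against the lower part alone Os03g0129300 was not called (edgeR adjusted p = 0.0877). Os11g0707000 had 13.3 and 16.4 CPM in nuclei and 20.0, 28.0 and 129 CPM in whole cells (log2 fold change -1.76, SE 0.78, edgeR adjusted p = 0.126).

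Photosystem subunit loci had a median log2 fold change of -0.36, with 9 of 14 below 0, 0 called lower and 1 called higher. Os05g0560000 had 66.7 and 65.8 CPM in nuclei, against 12.2, 23.3 and 52.1 CPM as the lowest, median and highest value in whole cells. Both nuclei libraries lay above every whole-cell library (log2 fold change 1.37, SE 0.42, 95% interval from 0.44 to 2.31, edgeR adjusted p = 0.0413). The call held without upper replicate 2 or lower replicate 2 and was lost without any of the other 6 libraries, with adjusted p-values from 0.0245 to 0.180 and log2 fold changes from 1.23 to 1.58. It was also lost with library size as the only scaling. Os07g0435300 pointed the other way, with 5.64 and 25.2 CPM in nuclei and 31.8, 43.9 and 67.1 CPM in whole cells. The nuclei libraries differed widely from each other, and the locus was not called (log2 fold change -1.54, SE 0.54, edgeR adjusted p = 0.0654). It was called lower by DESeq2 (log2 fold change -1.51, DESeq2 adjusted p = 0.0271). The same held with library size as the only scaling (log2 fold change -1.74, edgeR adjusted p = 0.0353). Without nuclei replicate 2 its log2 fold change was -2.99. Os07g0141400 had 41.8 and 74.7 CPM in nuclei and 49.2, 65.4 and 223 CPM in whole cells (log2 fold change -0.72, SE 0.63, edgeR adjusted p = 0.422).

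Electron carrier loci had a median log2 fold change of -0.32, a range from -0.66 to 0.49 and 0 of 5 called. Os07g0556200 had 44.1 and 69.1 CPM in nuclei and 31.8, 57.4 and 75.4 CPM as the lowest, median and highest value in whole cells, a log2 fold change of 0.07 with a 95% interval from -0.71 to 0.85 (edgeR adjusted p = 0.901). Os06g0107700 had 9.41 and 14.4 CPM in nuclei and 11.3, 18.3 and 37.5 CPM in whole cells (log2 fold change -0.66, SE 0.40, edgeR adjusted p = 0.243). The 3 Rubisco small subunit loci lay between -0.83 and -0.77, and 0 were called. Os12g0291100 had 28.8 and 75.2 CPM in nuclei and 46.1, 74.6 and 225 CPM in whole cells (log2 fold change -0.77, SE 0.60, edgeR adjusted p = 0.371). Os12g0274700 had 3.14 and 15.2 CPM in nuclei and 9.57, 19.7 and 20.8 CPM in whole cells (log2 fold change -0.83, SE 0.58, edgeR adjusted p = 0.316). Without nuclei replicate 2 it was called, at -2.37 with an adjusted p of 0.0325. Differences between the classes were not tested.

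Photosynthesis genes of the plastid were looked at through 29 genes that the reference table places in the plastid genome. Their names start with psa, psb, pet, atp or ndh. The atp and ndh genes do not encode partner subunits of the classes above, and the large subunit of Rubisco is not among the 29. Libraries were made from polyA RNA, so counts of plastid transcripts may not follow their level. Summed over the 29 genes the level was 13.8 and 93.4 CPM in nuclei replicates 1 and 2, 3.93, 1.24 and 2.15 CPM in upper replicates 1, 2 and 3, and 6.61, 1.63 and 4.61 CPM in lower replicates 1, 2 and 3. In every whole-cell library psaC, a subunit of photosystem I, had the highest CPM of the 29 genes. psbK, a subunit of photosystem II, lay below psbB in upper replicate 2 and in lower replicates 1 and 2. psaC was at 3.16, 0.839 and 1.36 CPM in the upper replicates, against 4.10, 0.658 and 2.93 CPM in the lower replicates. psbK was at 0.602, 0.0300 and 0.316 CPM in the upper replicates, against 0.391, 0.0253 and 0.838 CPM in the lower replicates. For psaC and psbK replicate 2 was the lowest library of each part. By contrast atpI, ndhE, ndhF and psbH were highest among the lower libraries in replicate 2, with at most 5 counts in any whole-cell library.

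Between the parts edgeR could test psaC and psbK, and called neither (log2 fold changes of -0.49 and -0.38, SE 0.78 and 1.24, adjusted p = 0.779 and 0.901). DESeq2 gave an adjusted p to 5 of the 29 genes and called 0 in each direction. In nuclei against the parts 9 of the 29 could be tested. psaC had 0.717 and 4.45 CPM in nuclei and 0.658, 2.14 and 4.10 CPM as the lowest, median and highest value in whole cells, and was not called (log2 fold change 0.29, SE 0.88, edgeR adjusted p = 0.831). psbK was not called either (log2 fold change 2.79, SE 1.20, edgeR adjusted p = 0.117). The other 7, which had not passed the filter in the fit of whole-cell libraries alone, were called higher and 0 were called lower, where 14.1% and 8.76% of all genes tested were. These 7 entered the test through their counts in nuclei, which fixes the direction, so nothing is read from that count.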

How the data were processed

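PolyA RNA was measured in 8 libraries. Per the labels' protocols, the parts were prepared with the NEBNext Ultra II Directional kit, which keeps strand, and the sorted nuclei with SMART-Seq. STAR, featureCounts, DESeq2 and build IRGSP-1.0 appear in the submitters' processing notes, with no versions or order. The deposited values are raw counts per feature in each library, not normalized by the authors. Each of the 8 count columns carries the name of its sample, and 0 columns remained unused.

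The members, their classes and the plastid gene list were chosen with earlier results of these data known. edgeR 4.0.16 in R 4.3.3 tested the counts by its quasi-likelihood test, with TMM scaling, filterByExpr and Benjamini-Hochberg adjustment over all genes tested. Upper and lower were compared in a fit of 6 libraries, and nuclei with the mean of the parts in a fit of all 8. These fits, and the fit of the parts with the replicate block, were first run on simulated data with known changes. The outcome of that run is not given, and no result here rests on it. It does not speak for the other fits used below and above. CPM uses TMM-scaled library sizes over all 8 libraries for single loci and total counts for sums. In a single library, 3 counts correspond to 0.269 and 0.371 CPM in nuclei and to between 0.0760 and 0.136 CPM in whole cells. Pair ratios add 0.5 CPM to each value after scaling over the 6 libraries. The SE was derived from edgeR's log2 fold change and F statistic, and the interval from that SE and a t quantile.

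Replicate numbers come from the labels. The correlation across 29848 genes of deviations from the group means was 0.372, 0.694 and 0.673 between upper and lower replicates 1, 2 and 3. Between unlike numbers it was at most 0.0479. Deviations within a part sum to 0, so low values between unlike numbers follow in part from the like-numbered ones and add no separate evidence. On the values of like numbers the libraries were taken as pairs. In the blocked fit of nuclei against the parts, nuclei carry no block term.

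Loci named in the text were those called, the locus of each class with the highest mean CPM over 8 libraries, and the locus of each class with the largest log2 fold change in each comparison. Others were named after their values were seen. Alternatives were DESeq2 1.42.0, other scalings, no filter, a replicate block, an adjusted p alone, a single part as the baseline, and each library left out. Leaving out both replicate 2 whole-cell libraries was added after the data were seen. Single-nucleus libraries and gene sequences were not used here.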

Additional observations from a re-analysis of the deposited data

How the results depend on the processing

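Between upper and lower, 0 members were called higher and 0 lower under every alternative listed with the processing but 1. That was the replicate block with pair 1 left out, where 1 was higher (7.56% of all genes tested) and 2 lower (4.18%). The 37 loci below 0 became 17 to 38 when single libraries were left out, with the low end from lower replicate 2, and 27 without replicate 2 in both parts. The ratio of summed CPM, 0.600, ran from 0.447 to 0.980 over the libraries left out, with the ends from upper and lower replicate 2. Os09g0346500 turned to a log2 fold change of 0.15 with the replicate block, 0.72 with the block without pair 2 and 0.71 without replicate 2 in both parts, and ran from -1.55 to 1.59 over single libraries left out. Os07g0141400 ran from -1.11 to 0.30 and Os03g0129300 stood at -0.011 with library size as the only scaling. That scaling moved the median of all genes to -0.34 between the parts and to -0.17 for nuclei, and the median of the members to -0.80 and -0.90. The cause of these changes was not tested.

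For nuclei against the parts, the 6 members called lower became 11 with DESeq2 (12.2% of the genes it tested) and 11 with the replicate block (12.3%). With single whole-cell libraries left out they became 4 to 9, where 1868 to 3191 of all genes tested were called lower. The loss without nuclei replicate 1 is given above. The 1 called higher became 0 with library size alone (3910 of all 31858 genes tested) and 0 against the lower part alone (3230). Without replicate 2 in both parts it became 2 (3416 of 31567). With single whole-cell libraries left out it became 0 to 1, where 3623 to 4246 of all genes tested were called higher. Against the upper part alone 5 members were called lower (2817 of all 31858 genes tested), and against the lower part alone 5 (1719). Loci below 0 stayed between 30 and 36 of 42 in all fits. The summed ratio of 0.505 ran from 0.430 to 0.668. Os07g0556200 stood at -0.10 with library size alone and -0.22 against the upper part alone, and ran from -0.30 to 0.35 over libraries left out. The count of plastid-encoded genes called higher, whose direction the filter fixed, was 7, against 18 without a filter and 4 to 9 with single libraries left out, and is no measure of stability. The replicate block changed no other call among the named loci than those given. The part of depth in these calls was not tested; the lowest count of a member in a library was 10.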

Other observations

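The loci whose pattern over the 8 libraries was most like the mean of the members were looked for among all other loci that passed the filter, by Pearson correlation on the log2(CPM + 1) scale. The files and the reference table do not name them. The highest values were 0.989 for Os09g0473350 on chromosome 9, 0.987 for Os03g0215900 and 0.985 for Os03g0225300 on chromosome 3, 0.985 for Os12g0224500 on chromosome 12 and 0.981 for Os09g0309900 on chromosome 9. The points share libraries and depth, and no test was made. Os09g0473350 had 0.538 and 2.10 CPM in nuclei, 2.07, 7.13 and 1.94 CPM in the upper libraries and 2.77, 12.3 and 2.13 CPM in the lower libraries. Os09g0309900 had 15.2 and 25.0 CPM in nuclei, 25.6, 39.2 and 28.1 CPM in the upper libraries and 27.5, 54.0 and 24.5 CPM in the lower libraries. Replicate 2 was the highest library of each part at both loci, and neither was called in either comparison. The loci were picked for their likeness to the members over these libraries. That choice favours a high replicate 2, so nothing is read from it.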
